A study of Homo sapiens with 4 samples.

Results

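INHBE, the stanniocalcin genes and other genes for secreted factors were examined in K562 cells expressing RUNX1::ERG. K562 is an established human myeloid leukemia cell line. The 10 genes were INHBA, INHBB, INHBC and INHBE, which encode the inhibin beta chains, STC1 and STC2, GDF15, FGF21, ADM2 and VEGFA, out of 25702 genes counted. They were chosen by name, as relatives of INHBE and STC2 and as secreted factors linked to cell stress, with earlier results of the same comparison known. INHBE and STC2 had been among its most lowered genes. The RUNX1::ERG to empty vector values below are therefore a description of these genes and carry no test.

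Poly(A)-enriched RNA had been sequenced (whole transcriptome sequencing, WTS) in 4 libraries, with 2 biological replicates in each group. One group transiently expressed, from the vector LeGO-iG2, RUNX1::ERG, a chimeric transcription factor that joins the Runt domain of RUNX1 to the ETS domain of ERG, and the other received the vector LeGO-iG2 empty. Both plasmids co-express green fluorescent protein, both groups are labelled as otherwise untreated, and the labels give no time after transfection. Expression from the plasmid is transient, and no sorting of transfected cells before RNA extraction is described in the sources used here. Cultures were therefore measured in bulk, where fewer cells of a type and less RNA per cell cannot be told apart.

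Secreted factors of this kind are the outward arm of cell stress programmes. Amino acid shortage, misfolded protein in the endoplasmic reticulum or mitochondrial faults activate kinases that phosphorylate eIF2alpha, after which the transcription factor ATF4 and its partner C/EBP proteins raise a set of target genes. GDF15, FGF21, INHBE, STC2, ADM2 and VEGFA have all been described as responsive to such stress in various tissues, and INHBE, INHBC and FGF21 are made chiefly by the liver. VEGFA is also a classical target of the hypoxia factors.

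The counts per library totalled from 59695387 to 82352144. Levels are given as CPM, counts scaled by library size with TMM factors, and a count of 0 allows up to 3 counts, or 0.0356 to 0.0498 CPM. From 66.7% to 68.9% of the counts between 1 and 10 were even numbers, so both mates of a pair may have been counted, and intervals or floors based on these counts cover counting error only. Counts of ERG, a part of the fusion, were 4 in both controls, 80443 in RUNX1::ERG replicate 1 and 27218 in replicate 2. All 8 K562 markers, among them GATA1, TAL1 and the embryonic and fetal globin genes, were present in every library. MS4A1 was at 0 in all libraries, CDH1 and KRT5 had at most 6 counts, while EPCAM was at 55.5 to 81.2 CPM and CD3D at 20.5 to 34.7 CPM. With 2 libraries per arm the smallest two-sided p of an exact permutation test is 0.333. Calls therefore depend on edgeR's estimate of the spread, and on cultures whose independence is known from the word biological replicate alone. A gene is called where its Benjamini-Hochberg adjusted p in the quasi-likelihood test of edgeR is under 0.05, with 15394 genes tested after low counts were filtered out.

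Promoter sequences were matched for 7 of the 10 genes in a RefSeq table on GRCh38.p14. INHBE, STC1 and VEGFA had no entry. The 250 bases before the annotated start are shown for FGF21, STC2, ADM2 and GDF15, because the first 3 were highest in 1 empty vector library while GDF15 was high in 3 libraries. They are written 5′ to 3′ on the strand of the gene, and capitals mark matches, on either strand, to 5 short motifs. The motifs were TGATGNAA, the core of the C/EBP-ATF response element that ATF4 reads, ACGTG and GCGTG, forms of the hypoxia response element, TGNGGT, read by the Runt domain, and CCGGAA, read by ETS domains.
FGF21 (chr19:48755274-48755523, plus strand): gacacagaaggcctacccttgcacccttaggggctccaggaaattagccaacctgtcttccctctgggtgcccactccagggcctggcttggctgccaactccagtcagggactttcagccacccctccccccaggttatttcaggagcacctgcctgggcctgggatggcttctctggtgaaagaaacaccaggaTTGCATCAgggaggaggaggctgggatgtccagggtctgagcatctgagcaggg
STC2 (chr5:173328415-173328664, minus strand): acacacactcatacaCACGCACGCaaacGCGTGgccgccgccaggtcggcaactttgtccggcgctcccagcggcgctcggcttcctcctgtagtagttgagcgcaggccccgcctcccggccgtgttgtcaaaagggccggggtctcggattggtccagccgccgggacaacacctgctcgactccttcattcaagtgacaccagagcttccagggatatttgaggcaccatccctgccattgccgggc
ADM2 (chr22:50481293-50481542, plus strand): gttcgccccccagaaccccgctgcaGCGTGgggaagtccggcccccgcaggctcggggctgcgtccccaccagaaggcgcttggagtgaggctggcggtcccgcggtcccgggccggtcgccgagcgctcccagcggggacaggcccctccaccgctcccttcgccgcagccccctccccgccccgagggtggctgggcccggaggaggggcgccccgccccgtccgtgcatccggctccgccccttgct
GDF15 (chr19:18385908-18386157, plus strand): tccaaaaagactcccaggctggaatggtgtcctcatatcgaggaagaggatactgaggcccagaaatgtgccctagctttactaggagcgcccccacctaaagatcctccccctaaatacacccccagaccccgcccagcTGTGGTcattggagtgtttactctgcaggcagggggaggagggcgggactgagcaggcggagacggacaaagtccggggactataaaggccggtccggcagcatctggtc

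The response element core was found in 1 of the 7 promoters, that of FGF21, from 54 to 47 bases before the start. It was present in 3.14% of the 35116 promoters in the table. The capitals in STC2 are 3 matches to GCGTG, of which the leftmost pair overlap by 1 base, and ADM2 held 1 match to the same motif, found in 32.2% of all promoters. In GDF15 the capitals mark TGTGGT, a match to the Runt motif from 110 to 105 bases before the start, and 37.7% of promoters held this motif. INHBC held 1 match each to ACGTG and to the Runt motif, INHBA held 1 to the Runt motif and INHBB held none. No promoter of the 7 matched CCGGAA, against 14.5% of all promoters, and ACGTG was found in 18.5%. A match says that the letters are there, and the absence of one says nothing about sites elsewhere.

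Of the inhibin beta genes, INHBE had the highest level per transcript length in each library. INHBE encodes the beta E chain, a member of the TGF-beta superfamily that forms activin E, and lies on chromosome 12 of GRCh37 (chr12:57846106-57853063, plus strand). Its counts were 3528 and 372 in the controls and 297 and 272 with RUNX1::ERG, replicate 1 first. In CPM these are 58.6, 5.28, 3.52 and 3.78. Empty vector replicate 1 stood apart, at 11.1 times replicate 2, and the other 3 libraries were close together. Both RUNX1::ERG libraries were below both empty vector libraries. The means were 31.9 ± 37.7 (SD, n = 2) and 3.65 ± 0.184 (SD, n = 2) CPM for the empty vector and RUNX1::ERG, with a log2 fold change of -3.13 (standard error, SE, 0.77). Without empty vector replicate 1 the log2 fold change was -0.53 and INHBE was no longer called. The call was also lost with scaling by library totals, DESeq2, limma voom or the replicate block, and without RUNX1::ERG replicate 1.

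INHBC, which encodes the beta C chain, starts upstream of INHBE on the same strand (chr12:57828567-57845845). Only 261 bases separate the annotated genes. It had 39, 13, 19 and 16 counts in empty vector replicates 1 and 2 and RUNX1::ERG replicates 1 and 2, or 0.648, 0.184, 0.225 and 0.223 CPM. Empty vector replicate 1 was again the highest library, and the groups overlapped because replicate 2 was the lowest. INHBA (chr7:41706766-41745432), for the beta A chain of activin A, reached no more than 2 counts anywhere, and the same held for INHBB (chr2:121103712-121109379), for the beta B chain. Neither passed the filter, and no difference in them was detectable at this depth.

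STC2 and STC1 encode stanniocalcins, secreted glycoproteins first known as regulators of calcium in fish. STC2 also binds and inhibits the protease PAPP-A, which frees insulin-like growth factors. STC2 (chr5:172741726-172755450, minus strand) was at 60.8 and 16.1 CPM in empty vector replicates 1 and 2, and at 7.35 and 6.997 CPM in RUNX1::ERG replicates 1 and 2. The groups did not overlap, and the RUNX1::ERG libraries were also apart from the lower empty vector library, which was at 2.24 times their mean. The log2 fold change was -2.42 (SE 0.47), and it was -1.17 without empty vector replicate 1, still called. STC2 was called with each of the 4 libraries left out, but not by limma voom (-2.096).

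STC1 (chr8:23699442-23712319, minus strand) showed a different order. It was at 1.86 and 2.81 CPM with the empty vector and at 1.103 and 1.79 CPM with RUNX1::ERG. Its highest library was empty vector replicate 2, unlike STC2. The groups did not overlap but replicate 2 of RUNX1::ERG lay close to replicate 1 of the empty vector. Its log2 fold change was -0.69 (SE 0.39), and it was not called.

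GDF15, a distant member of the TGF-beta superfamily that acts on the brainstem receptor GFRAL, was among the more abundant transcripts of these genes (chr19:18485541-18499986, plus strand). It was at 230 and 57.5 CPM in empty vector replicates 1 and 2. In RUNX1::ERG replicates 1 and 2 it was at 264 and 150 CPM. The groups overlapped, with empty vector replicate 2 the lowest and RUNX1::ERG replicate 1 the highest. The log2 fold change of 0.53 (SE 0.48) was not called. It was 1.84 and called higher without empty vector replicate 1, and -0.15 and not called without empty vector replicate 2, so its direction depended on which control library was used.

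VEGFA encodes the main growth factor of blood vessels (chr6:43737921-43754224, plus strand). Its levels were 296 and 133 CPM in empty vector replicates 1 and 2, and 266 and 161 CPM in RUNX1::ERG replicates 1 and 2. In each group replicate 1 was the higher library, and the groups overlapped fully. The log2 fold change was -0.0052 (SE 0.33), not called and of opposite sign, at 0.026, when libraries were scaled by their totals. Without empty vector replicate 1 it was 0.68 and called higher.

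ADM2 encodes adrenomedullin 2, also called intermedin, a vasodilating peptide of the calcitonin family (chr22:50919972-50924869, plus strand). It was at 28.0 and 2.07 CPM in empty vector replicates 1 and 2 and at 4.08 and 2.62 CPM in RUNX1::ERG replicates 1 and 2. Empty vector replicate 1 was at 13.5 times replicate 2, while replicate 2 was below both RUNX1::ERG libraries. The log2 fold change was -2.16 (SE 0.81), not called, and it turned to 0.69 without empty vector replicate 1. ADM2 overlaps SBF1 on the opposite strand. SBF1 was at 130, 124, 126 and 111 CPM in the same order of libraries, with no such difference. The strand setting of the counting is not given in the sources used here, so reads of overlapping genes cannot be told apart. This also holds for the unnamed noncoding RNA genes that overlap INHBE and VEGFA on the opposite strand. MIR3189 lies within GDF15 on the same strand and had 92, 35, 111 and 53 counts.

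FGF21, an endocrine fibroblast growth factor that signals through FGF receptors with the co-receptor beta-klotho (KLB), was nearly silent in all but 1 library (chr19:49258781-49261590, plus strand). It had 60 counts in empty vector replicate 1, 4 in replicate 2, and 4 and 0 in RUNX1::ERG replicates 1 and 2. With 1 library above the low-count limit it did not pass the filter of the edgeR test. FGF21 was called lower by DESeq2 and by edgeR without a filter. With empty vector replicate 2 left out its log2 fold change was -5.21. Each of these results rests on the 60 counts of empty vector replicate 1.

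**Figure D1:**
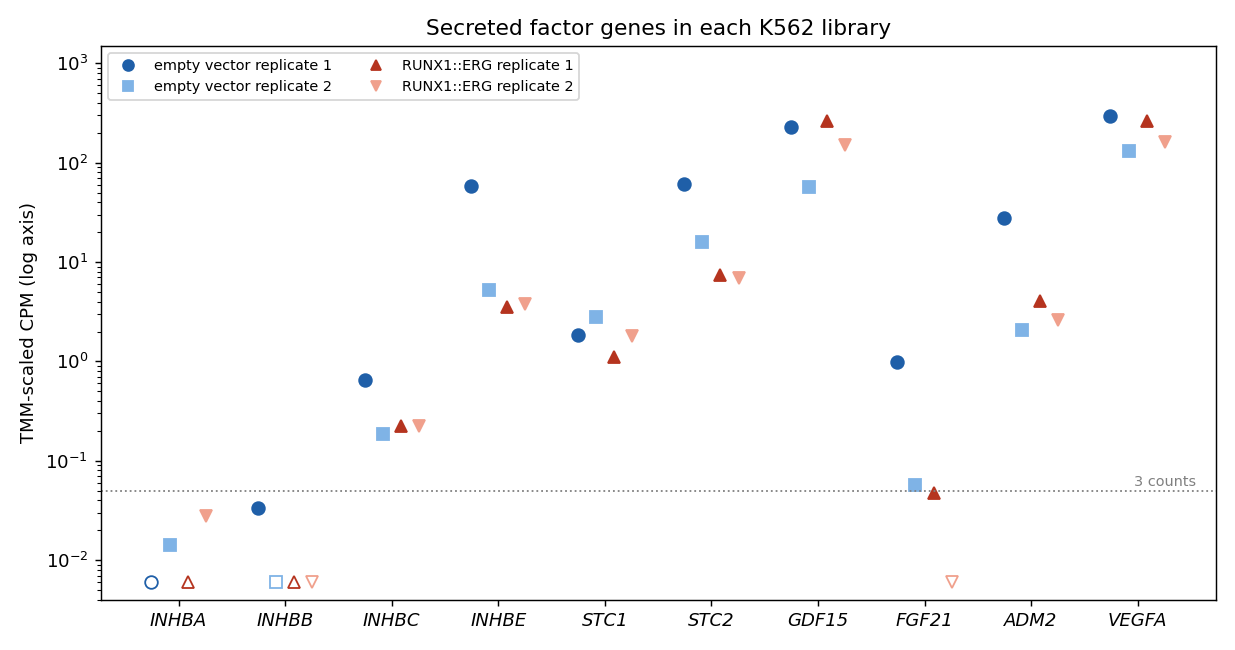
TMM-scaled CPM of the 10 genes (log axis) in each of the 4 libraries, 1 point per library. Open symbols at the bottom are counts of 0, and the dotted line is the largest level that 3 counts give in a library (0.0498 CPM). INHBE, FGF21 and ADM2 have 1 point, empty vector replicate 1, far above the other 3, whereas GDF15 and VEGFA are high in replicate 1 of both groups.

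Levels of different genes were compared per length, as CPM per kilobase of the canonical transcript of GENCODE v44 on GRCh37. GDF15 was the highest in every library, from 48.0 to 220 CPM per kilobase, followed by VEGFA, from 36.7 to 81.9. STC2, from 1.64 to 14.3, and INHBE, from 1.43 to 23.8, came next. Their ranges overlapped, and INHBE was above STC2 in empty vector replicate 1 and below it in the other 3 libraries. ADM2, at 0.491 to 6.64, and STC1, at 0.285 to 0.726, also overlapped. INHBC and FGF21 were at most 0.202 and 0.740 CPM per kilobase. The order of the lower genes therefore depended on the library.

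Of the 10 genes, 7 passed the filter on low counts. With RUNX1::ERG 2 of these were called lower, INHBE and STC2, against 1.15% of all tested genes (4.79% were called in either direction). None was called higher (3.64% of all tested genes) by edgeR, by DESeq2 or by limma voom, nor at an unadjusted p under 0.05 by any of these tools. Both RUNX1::ERG libraries were below both empty vector libraries for 3 of the 7, INHBE, STC1 and STC2, against 22.1% of all tested genes. They were above for 0 of the 7, against 25.1%. As the genes were chosen with this comparison known, nothing is read from these shares. Without empty vector replicate 1, 3 of 7 were called, STC2 lower (1.91% of genes were) and GDF15 and VEGFA higher, where 7.68% of 15968 tested genes were called in either direction. Relative to empty vector replicate 2 alone, the RUNX1::ERG mean was higher for 4 of the 7 genes, INHBC, GDF15, ADM2 and VEGFA, with ratios of 1.21, 3.60, 1.62 and 1.61. It was lower for INHBE, STC1 and STC2, at 0.693, 0.516 and 0.447 of replicate 2.

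**Figure D2:**
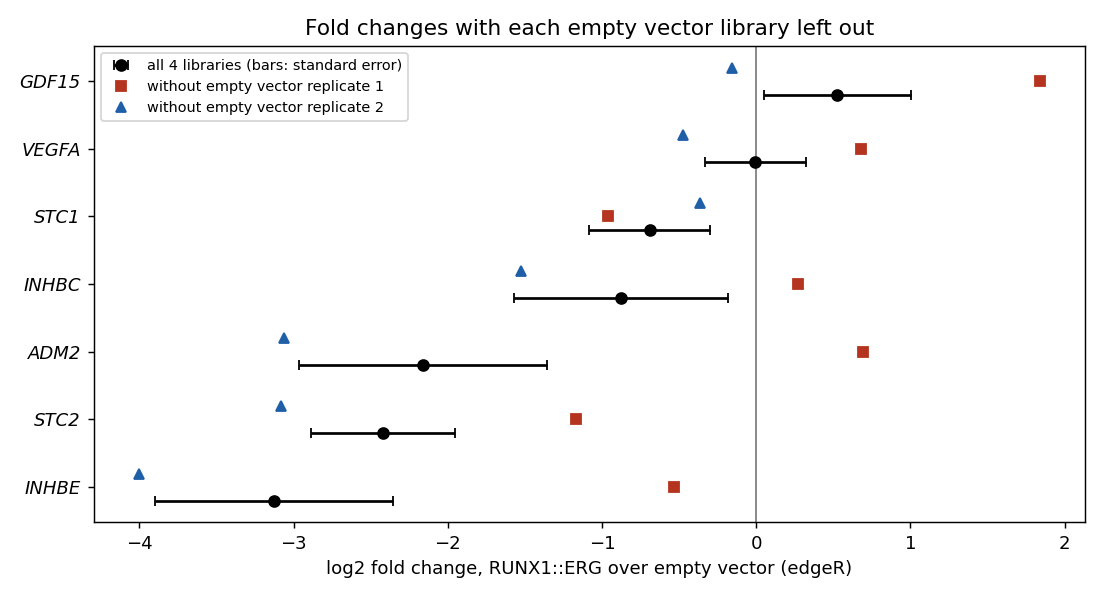
log2 fold changes of the 7 tested genes, RUNX1::ERG over empty vector, from edgeR. Black circles with standard errors are from all 4 libraries, red squares omit empty vector replicate 1 and blue triangles omit empty vector replicate 2. In all 3 fits STC2 (-2.42, -1.17 and -3.08), INHBE (-3.13, -0.53 and -4.00) and STC1 (-0.69, -0.96 and -0.36) stay below 0. GDF15, VEGFA, ADM2 and INHBC lie on different sides of 0 depending on the control library.

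The empty vector libraries were then set against each other, 1 library on each side and hence without a test. On the scale of log2(CPM + 1), replicate 1 exceeded replicate 2 by 3.25 for INHBE, 3.24 for ADM2, 1.98 for GDF15, 1.86 for STC2 and 1.15 for VEGFA. At least a 2-fold excess was thus seen for 5 of the 7 tested genes, against 1.25% of all tested genes. VEGFA was at percentile 99.2 of these differences over all tested genes, and the other 4 were at higher percentiles. As the genes were chosen with earlier results of these libraries known, nothing is read from this share or these percentiles. A high empty vector replicate 1 by itself lowers the fold change by which INHBE and STC2 were known. INHBC differed by 0.48 and STC1 by -0.41. FGF21, not tested, differed by 0.92 on this scale, which compresses low levels. Between the RUNX1::ERG libraries none of the 7 genes reached a 2-fold excess in replicate 1, which 0.344% of tested genes did, with 0.81 for GDF15, 0.72 for VEGFA and 0.49 for ADM2. INHBE and STC2 differed by -0.081 and 0.063 there.

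**Figure D3:**
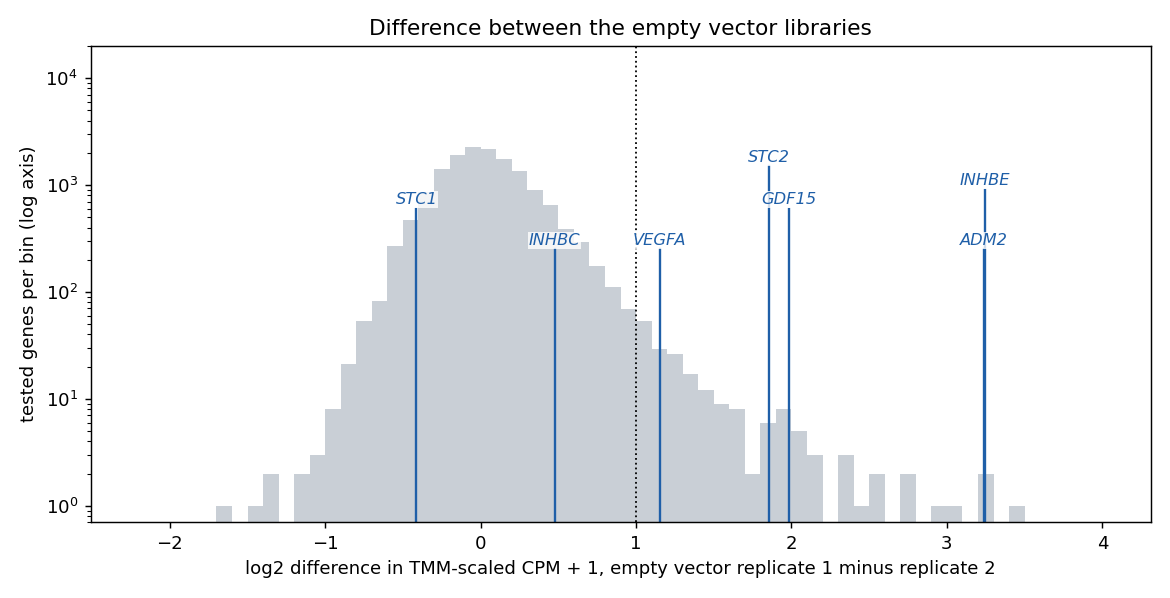
Histogram over all 15394 tested genes of the log2 difference in CPM + 1, empty vector replicate 1 minus replicate 2, with tested genes per bin on a log axis. Blue lines mark the 7 tested secreted factor genes, and line heights carry no value. The dotted line is a 2-fold excess, and INHBE, ADM2, GDF15, STC2 and VEGFA are to its right.

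The ATF4 branch was measured by a list of 17 genes of stress factors and their known targets. The list overlaps genes known from earlier results, so its counts are not independent evidence of direction. All 16 tested genes had a lower fitted level with RUNX1::ERG. Their median log2 fold change was -1.28, beside -0.0017 over all tested genes. The genes called lower were PSAT1 (log2 fold change -2.23, SE 0.50, edgeR adjusted p = 0.031) and PHGDH (-1.94, SE 0.47, edgeR adjusted p = 0.041), enzymes of serine synthesis, where 1.15% of all tested genes were called lower. Both calls were lost with scaling by library totals, where 0 of the 16 were called and 11 were lower at an unadjusted p under 0.05. Without a filter 14 of 17 list genes were called lower by edgeR, beside 538 of all 20312 genes. With the replicate block 6 of 16 were, beside 651 of all 15394. The median log2 fold change of the list was -1.995 when empty vector replicate 2 was left out. Leaving out RUNX1::ERG replicate 1 instead gave a median of -1.44. DESeq2 and limma voom called 0 of the list, with 5 and 4 lower at an unadjusted p under 0.05, where edgeR had 13. The share of all genes that were lower at an unadjusted p is not given here, so the unadjusted counts of this list lack a background. In empty vector replicate 1, 13 of the 16 were at least 2-fold above replicate 2, as were 1.25% of all tested genes. Without that library the median was -0.061 and PSAT1 alone was called lower (-0.80, edgeR adjusted p = 0.012).

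ATF4 itself was at 443 and 252 CPM in empty vector replicates 1 and 2 and at 258 and 234 CPM with RUNX1::ERG. DDIT3, which encodes the stress factor CHOP, was at 92.2 and 27.7 CPM and then at 34.2 and 24.9 CPM. The same order of a high empty vector replicate 1 held for ATF3, an early stress factor, at 60.1 and 13.3 against 19.6 and 11.9 CPM, and for TRIB3, a pseudokinase that restrains CHOP, at 327 and 84.3 against 88.3 and 75.9 CPM. CHAC1, an enzyme that degrades glutathione, was at 47.6 and 3.39 against 2.67 and 2.41 CPM. ASNS, asparagine synthetase, was at 400 and 97.2 against 69.0 and 76.4 CPM. In each of these 6 genes empty vector replicate 1 was the highest library. Their edgeR adjusted p-values ran from 0.0505 for CHAC1 and 0.058 for ASNS to 0.287 for ATF4.

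**Figure D4:**
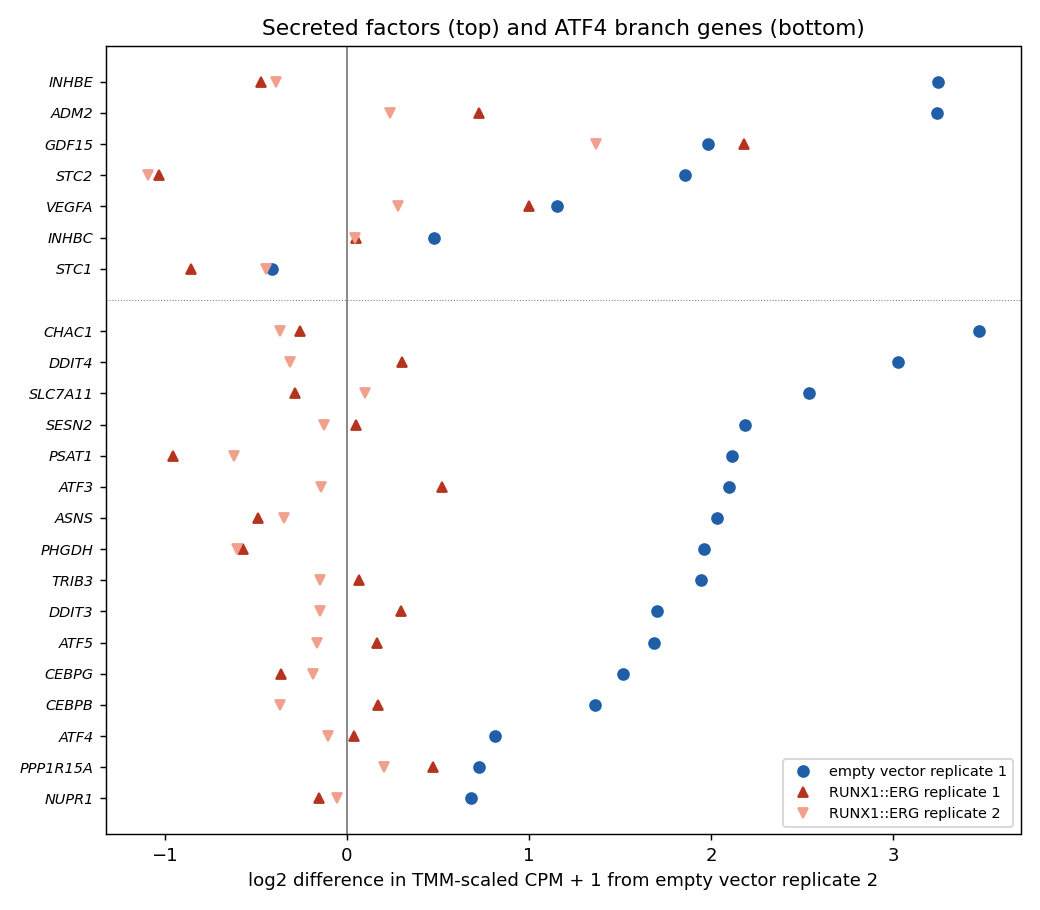
log2 difference in CPM + 1 from empty vector replicate 2 (vertical line at 0) for the 7 tested secreted factor genes, above the dotted line, and the 16 tested ATF4 branch genes, below it, with 1 point for each of the other 3 libraries. Empty vector replicate 1 is to the right for all ATF4 branch genes, from 0.68 for NUPR1 to 3.47 for CHAC1. The RUNX1::ERG libraries are at -0.47 and -0.39 for INHBE, at -1.03 and -1.09 for STC2, and to the right for GDF15 (2.18 and 1.37).

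The response element core that ATF4 reads was found in a promoter of 4 of the 15 genes of this list that the promoter table held. Some of these genes have more than 1 promoter there, so the 3.14% found over single promoters is not a like background. The list holds known stress targets, and nothing is read from this count. The eIF2alpha kinases and their substrate complex (6 genes) had no call in the main edgeR fit, with 1 at an unadjusted p under 0.05. DESeq2 and edgeR with the replicate block each called 1 higher, beside 801 of all 20312 and 1082 of all 15394 genes. The median log2 fold change of the 6 genes in the main fit was 0.013. Of the 14 genes of the ATF6 and IRE1 branches of the unfolded protein response, such as the chaperone HSPA5, none was called by the main edgeR fit or by limma voom. At an unadjusted p under 0.05 the main fit had 3 lower, and DESeq2 called 2 lower, beside 403 of all 20312 genes. Without a filter edgeR called 2 lower, beside 538 of all 20312 genes, and with the replicate block 3, beside 651 of all 15394. Their median log2 fold change was -0.17, and -0.136 without empty vector replicate 1. Of the 14, 2, HERPUD1 and ERN1, were at least 2-fold higher in empty vector replicate 1 than in replicate 2.

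The patterns closest to INHBE and to STC2 over the 4 libraries were found among 10252 tested genes with a mean of at least 5 CPM. Likeness was the root mean square distance between log2(CPM + 1) values centred on each gene's mean. CHAC1 was the nearest to INHBE, at 0.103 log2 units. Next were CTH, at 0.353, a cysteine-making enzyme, ALDH1L2, at 0.355, a mitochondrial folate enzyme, IL20RB, at 0.367, a cytokine receptor subunit, and DDIT4, at 0.374, an inhibitor of mTORC1. All of these were highest in empty vector replicate 1. CTH, for example, was at 77.9, 10.5, 10.1 and 10.2 CPM in empty vector replicates 1 and 2 and RUNX1::ERG replicates 1 and 2. Likeness to INHBE is thus mostly a shared excess in 1 library. At least a 2-fold excess there over empty vector replicate 2 was seen for 192 of the tested genes. In each other library CHAC1 and IL20RB were below 5 CPM, the limit set for the mean. The nearest to STC2 were PSAT1 and SLC6A9, a glycine transporter, both at 0.184, then PHGDH at 0.215, AKNA at 0.241 and G0S2 at 0.254. G0S2 was at 22.1, 4.28, 3.05 and 2.64 CPM in the order used for CTH. It thus passed the limit of 5 CPM for the mean only through empty vector replicate 1. SLC6A9 was at 85.3, 22.5, 13.6 and 13.6 CPM in the same order, with RUNX1::ERG below the lower control as for STC2.

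Within 100 kb of INHBE, 16 other genes are annotated on GRCh37, of which 10 had counts and all 10 of these were tested. The lowest edgeR adjusted p among them was 0.178, for MARS1. DDIT3, 57308 bases from INHBE, and KIF5A, a neuronal kinesin at 68.6, 32.4, 37.4 and 28.3 CPM, were at least 2-fold higher in empty vector replicate 1 than in replicate 2. MARS1, methionyl-tRNA synthetase, was at 459 and 233 CPM with the empty vector and at 214 and 216 CPM with RUNX1::ERG. GLI1, which starts 505 bases after the end of INHBE, was at 1.83, 0.837, 1.36 and 1.14 CPM. ARHGAP9 was at 2.19, 1.16, 4.03 and 1.78 CPM, MBD6 at 86.5, 47.6, 67.2 and 48.8, and MIR616 had 41, 12, 53 and 17 counts. MIR616 lies within DDIT3 on the same strand. On opposite strands, ARHGAP9 overlaps MARS1, MBD6 overlaps DDIT3 and DCTN2, and KIF5A overlaps DCTN2. As the strand setting is not given, reads of these overlapping genes cannot be told apart. R3HDM2 and DCTN2 had log2 fold changes of -0.31 and -0.10. Per kilobase, INHBC was at 0.202 CPM in empty vector replicate 1, where INHBE was at 23.8.

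Because INHBE, INHBC and FGF21 are known as liver genes, 7 hepatocyte markers were counted in each library. They summed to 1.73 and 0.0567 CPM in empty vector replicates 1 and 2, and to 4.34 and 0.320 CPM in RUNX1::ERG replicates 1 and 2. Of the 7, 3, 5, 1 and 3 were at 0, and CYP3A4 was at 0 in all 4 libraries. SERPINA1 had 42, 0, 142 and 0 counts. ALB had 8, 2, 113 and 8 counts, APOB 19, 0, 62 and 0, TTR 0, 0, 14 and 10, and FGB 0, 0, 4 and 4. APOA1, with 35, 2, 31 and 1 counts, was highest in empty vector replicate 1. The summed level was highest in RUNX1::ERG replicate 1, where INHBE was at 3.52 CPM and FGF21 had 4 counts. It was next highest in empty vector replicate 1, where INHBE was at 58.6 CPM and FGF21 had 60 counts. A link between these markers and the secreted factor genes was not tested.

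Receptors and partners of the secreted factors were described next, since a ligand acts through them. Of 17 genes, 9 were tested, with 2 called higher and 1 lower (3.64% and 1.15% of all tested genes were called higher and lower). FGFR1 was at 0.332 and 0.284 CPM with the empty vector and at 3.02 and 1.42 CPM with RUNX1::ERG, a log2 fold change of 2.85 (SE 0.49, edgeR adjusted p = 0.0088). FLT1, a VEGF receptor, rose by 1.47 on the log2 scale (SE 0.35, edgeR adjusted p = 0.040), from 1.33 and 2.33 to 4.31 and 5.84 CPM. FGFR4 fell from 38.9 and 38.0 to 24.4 and 19.6 CPM, with a log2 fold change of -0.81 (SE 0.19, edgeR adjusted p = 0.036). FGFR4 and FLT1 were not called when either RUNX1::ERG library was left out, FGFR1 was not called without RUNX1::ERG replicate 1, and FGFR4 was not called with scaling by library totals (-0.77). FGFR3 was at 113 to 163 CPM and was not called. The GDF15 receptor GFRAL had 0 counts in all 4 libraries, the co-receptor RET at most 4, and the VEGF receptor KDR at most 2. KLB had 21 to 36 counts, and PAPPA was at 1.05 to 1.46 CPM.

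Of the 14 genes of the activin pathway, 13 were tested and none was called by edgeR, DESeq2 or limma voom. At an unadjusted p under 0.05, edgeR gave 2 higher and 2 lower. INHA, the inhibin alpha chain, was at 2.11 and 2.24 CPM with the empty vector and at 4.03 and 3.25 CPM with RUNX1::ERG (log2 fold change 0.75, SE 0.31, edgeR adjusted p = 0.228). FSTL3, a follistatin-like antagonist of activins, was at 7.70 to 8.71 CPM in the 4 libraries, and FST, follistatin, had at most 4 counts. The median log2 fold change of the 13 was -0.028.

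Of 18 related ligands, 8 were tested, 2 were called higher and none lower by edgeR, DESeq2 or limma voom, with 1 lower at an unadjusted p under 0.05 by edgeR. Over all tested genes 3.64% were called higher by edgeR. TGFB1, the prototype of the superfamily, was at 269 and 239 CPM with the empty vector and at 596 and 367 CPM with RUNX1::ERG (log2 fold change 0.92, SE 0.21, edgeR adjusted p = 0.034). It was not called without RUNX1::ERG replicate 1 (0.53). BMP6, a regulator of iron balance, had 2 and 0 counts with the empty vector and 212 and 108 counts with RUNX1::ERG (edgeR adjusted p = 0.00076). BMP6 thus entered the test through its RUNX1::ERG counts alone, and its fold change rests on control counts near 0. A stricter filter, which each single library had to pass, left BMP6 untested. Under that filter 6 of the ligands were tested and 1 was called higher. VEGFB, a relative of VEGFA, was at 48.4 and 51.4 against 63.0 and 49.4 CPM, and ADM, adrenomedullin, had 8 to 16 counts per library. Both were without a call.

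The hypoxia list was included for VEGFA. Of its 14 genes, 13 were tested, with 2 called higher by edgeR and by limma voom, against 3.64% of all tested genes by edgeR. DESeq2 called 4 of the 14 higher, beside 801 of all 20312 genes. None of the 3 tools called any lower, with 1 lower at an unadjusted p under 0.05 in each. EPAS1, which encodes HIF-2alpha, was at 18.3 and 18.2 CPM with the empty vector and at 31.8 and 35.3 CPM with RUNX1::ERG (log2 fold change 0.88, SE 0.18, edgeR adjusted p = 0.021). NDRG1, a stress-responsive gene often used as a hypoxia marker, was at 7.46 and 7.52 against 15.8 and 15.8 CPM (log2 fold change 1.08, SE 0.21, edgeR adjusted p = 0.016). Both genes had near-equal levels in the empty vector libraries, unlike VEGFA. Without RUNX1::ERG replicate 1 neither was called, and without replicate 2 EPAS1 was not called. HIF1A had a log2 fold change of 0.16 (edgeR adjusted p = 0.691).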

How the data were processed

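WTS counts of reads per gene were deposited by the authors as raw values, one file per library, listed by NCBI gene number. The submitters' processing notes name hg19, HISAT2 2.2.1 and featureCounts 2.0.1. The gene annotation, strand setting and handling of mate pairs are not given in the sources used here. Totals ran from 59695387 to 82352144 counts. Symbols came from a RefSeq gene table, which matched 92.2% of the 25702 genes, and positions from GENCODE v44 on GRCh37. Promoters came from a RefSeq table on GRCh38.p14, and the 2 builds were not mixed.

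Counts were analysed in R 4.3.3 with edgeR 4.0.16 (TMM scaling, its default filter on low counts, the quasi-likelihood test without a replicate block, Benjamini-Hochberg adjustment, threshold 0.05). Standard errors (SE) were derived as the absolute log2 fold change over the root of the F statistic. Library differences used log2(CPM + 1). The genes, lists and motifs were chosen with earlier results of these data known. Besides the 10 genes, named genes were RUNX1 and ERG, fixed relatives and stress genes, list genes past the threshold (up to 4 per direction), neighbours within 100 kb of INHBE and the 5 closest patterns to INHBE and STC2. The alternatives used DESeq2 1.42.0, limma 3.58.1, other scalings and filters, a block, and each library left out. The fits were run on simulated counts with the same spread for all genes and no outlying library. That run therefore cannot show how they handle a high empty vector replicate 1.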

Additional observations from a re-analysis of the deposited data

How the results depend on the processing

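STC2 was called lower in every fit except limma voom. INHBE, called with all 4 libraries, was not called with scaling by library totals, DESeq2, limma voom or the replicate block (log2 fold changes of -3.11, -3.13, -2.204 and -2.33), nor without replicate 1 of the empty vector (-0.53) or of RUNX1::ERG (-3.07). The number of secreted factor genes called was 1 with library totals, 5 without a filter (INHBE, STC2, ADM2 and FGF21 lower, GDF15 higher), 0 with limma voom, where 2 were lower at an unadjusted p under 0.05, and 1 to 4 with a library left out. These fits leave 1 library in an arm, which is assumed to vary like the other group. All genes called numbered 1500 without a filter, 1204 with DESeq2, 1733 with the replicate block and 286 to 1336 with a library left out, against 737. Listed pathway genes called numbered 26 without a filter, 19 with the replicate block and 1 to 28 with a library left out, against 9. STC2 was at least 2-fold lower in every pair of libraries, and with library totals that count was 0. The cause was not tested. Libraries that share a replicate number deviated together across genes (r = 0.37), but there are 2 such pairs and no label for a shared batch, so no pairing was assumed. Under the replicate block GDF15 was called higher (0.79). VEGFA changed sign with library totals (0.026), a stricter filter (0.00060), limma voom (0.074) and the replicate block (0.062), FSTL3 with library totals (0.026) and GLI1 with limma voom (0.043). With 1 library left out in turn the log2 fold change crossed 0 for INHBC (-1.53 to 0.27), GDF15 (-0.15 to 1.84), ADM2 (-3.06 to 0.69), VEGFA (-0.47 to 0.68), DDIT3 (-1.64 to 0.090), ATF3 (-1.93 to 0.24), DDIT4 (-3.01 to 0.024), KIF5A (-1.06 to 0.016), MBD6 (-0.58 to 0.28), DCTN2 (-0.203 to 0.0098), GLI1 (-0.54 to 0.58), FSTL3 (-0.11 to 0.073), VEGFB (-0.014 to 0.32) and MIR616 (-0.83 to 1.34). INHBA and INHBB were limited by depth. FGF21 was called lower by DESeq2, a call that rests on empty vector replicate 1 alone.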

Other observations

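Of the markers used to check the identity of the cells, 2 were themselves called by edgeR, where 4.79% of all tested genes were called. TAL1, a regulator of erythroid and megakaryocytic genes, was at 197 and 197 CPM in the empty vector libraries and at 323 and 308 CPM with RUNX1::ERG (log2 fold change 0.68, SE 0.15, edgeR adjusted p = 0.025's quasi-likelihood test). COL1A1, the alpha 1 chain of type I collagen, was at 4.13 and 3.62 CPM and at 22.0 and 19.6 CPM, with a log2 fold change of 2.42 (SE 0.22) by the same edgeR test. It was the 1 called gene of the 3 tested stromal and epithelial markers (3.64% of all tested genes were called higher). COL3A1 and DCN never exceeded 12 counts. Of the 4 tested lymphoid markers none was called by edgeR or limma voom, with 1 lower at an unadjusted p under 0.05. DESeq2 called 1 lower, beside 403 of all 20312 genes. Of the 4 tested hepatocyte markers none was called by edgeR or DESeq2, with 1 higher at an unadjusted p under 0.05 by edgeR. The limma voom fit called 1 higher, beside 535 of all 15394 genes.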
